A study of Mus musculus with 13 samples.

Results

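The proteasome is the large protease that degrades proteins tagged with ubiquitin. The 43 genes described here are its subunits, activators, inhibitor and assembly factors, out of 14911 genes measured in injured mouse muscle. They were taken by gene symbol, as every measured gene named Psma, Psmb, Psmc, Psmd, Psme, Psmf or Psmg plus a number, without Psmb8, Psmb9 and Psmb10, the inducible catalytic subunits of the immunoproteasome. By role they are 7 alpha and 7 beta subunits of the core, 6 ATPase and 11 non-ATPase subunits of the regulatory particle, 4 activators with 1 inhibitor, and 7 assembly factors.

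Libraries came from female C57BL/6 mice whose hamstring muscle had been injured by an injection of cardiotoxin (0.32 mg/kg), a cobra toxin that kills muscle fibres. Dexamethasone, a synthetic glucocorticoid, was then given to 9 mice once a day by the intraperitoneal route at 10 mg/kg, and saline to 4 mice on the same schedule. Whole hamstring was taken at day 4, and polyadenylated RNA was sequenced from 1 mouse per library. Every mouse was injured, so the comparison is between treatments of injured muscle and holds no uninjured muscle. By the submitters' account bone had formed in the injured muscle of all dexamethasone mice, and a saline mouse in which it had formed was excluded, so treatment and bone formation cannot be told apart.

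The alpha and beta subunits form a hollow barrel whose beta subunits cut the peptide chain. The regulatory particle caps the barrel: its ATPases form a ring that unfolds the substrate and feeds it in, and its non-ATPase subunits bind ubiquitin chains and remove them. Other caps can take its place, such as the interferon-induced activator made of Psme1 and Psme2, the nuclear activator Psme3 and the large activator Psme4. In muscle, the ubiquitin and proteasome pathway is known for breaking down myofibrillar proteins, and glucocorticoids are a classic trigger of that loss. When proteasome activity is short, the transcription factor NFE2L1 is known to raise transcription of many subunit genes together through antioxidant response elements.

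Promoter sequences were available for 36 of the 43 genes, in a RefSeq table on build GRCm38.p6 that gave 39 promoters for them. The 250 bases before each listed start were searched on both strands for short motifs. Windows around 2 of the motifs are printed below on the strand of the gene, for genes that were higher and genes that were lower. The listed windows of Psme1 and Psme2, 2 of the genes with the largest falls, held neither motif and are not printed. The core of the antioxidant response element, TGACNNNGC, lay in front of Psmb5 and Psmb6, which encode catalytic beta subunits. It is in capitals in the windows at chr14:54618009-54618067 (minus strand) and chr11:70525323-70525356 (plus strand).
Psmb5: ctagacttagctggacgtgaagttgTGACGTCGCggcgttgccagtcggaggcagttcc
Psmb6: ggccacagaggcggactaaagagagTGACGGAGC

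The ETS site, CCGGAAG or its complement CTTCCGG, was found before the listed start of genes that were higher and of genes that were lower under dexamethasone. It is in capitals below. The listed RefSeq starts can differ from the annotated gene ranges used elsewhere in this report. The Psme4 and Psmd6 sites reach over the first base of the annotated gene, and the Psmc1 site lies inside the annotated gene. The windows of Psme4 (chr11:30771697-30771753), Psme3 (chr11:101316081-101316137), Psmd2 (chr16:20651601-20651651) and Psmc1 (chr12:100110149-100110201) are on the plus strand, and that of Psmd6 (chr14:14120959-14121015) is on the minus strand.
Psme4: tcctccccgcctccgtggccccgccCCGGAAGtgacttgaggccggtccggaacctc
Psme3: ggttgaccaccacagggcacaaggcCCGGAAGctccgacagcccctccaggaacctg
Psmd2: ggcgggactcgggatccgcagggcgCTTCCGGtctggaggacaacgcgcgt
Psmc1: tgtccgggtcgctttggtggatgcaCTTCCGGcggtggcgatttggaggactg
Psmd6: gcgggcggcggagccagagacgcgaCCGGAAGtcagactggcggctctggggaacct

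The ETS site was present in 33.3% of the 39 proteasome promoters, against 11.9% of 14945 promoters of all measured genes. Of the 12 proteasome genes that held it, 4 were higher, 3 were lower and 5 were not called. The antioxidant response element core was present in 12.8% of the proteasome promoters, against 11.6% of all. It preceded Psmb5, Psmb6, Psmd9, Psmc6 and Psmd12, of which 3 were lower and 0 higher. Of all 43 proteasome genes 32.6% were lower and 18.6% higher, and of all measured genes 22.9% and 25.2%. The interferon response element, GAAA then any 2 bases then GAAA, was present in 7.69% of the proteasome promoters and 2.72% of all. It lay in front of Psmb3, Psmd4 and Psmd9, of which 2 were lower and 0 higher. The full glucocorticoid response element, AGAACA then any 3 bases then TGTTC, was in 0 of the proteasome promoters and 0.0268% of all, and its AGAACA arm alone in 15.4% of the proteasome promoters and 11.3% of all. Of the 6 proteasome genes with that arm, 4 were lower and 0 higher. The CCAAT box (CCAAT) was in 30.8% of the proteasome promoters and 34.5% of all, and the GC box (GGGCGG) in 56.4% and 54.5% of the same sets. Of 12 proteasome genes with a CCAAT box 2 were lower and 2 higher, and of 21 with a GC box 7 and 4. A match describes letters in a window and does not show a binding site.

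Levels are log2 CPM, the log2 of counts per unit of sequencing depth as the authors normalised them. Recovered from those values, dexamethasone libraries held 28021111 to 34942266 reads over these genes and saline libraries 25531487 to 32537345. Proteasome genes were well covered, from 153 reads of Psmg4 to 10312 reads of Psmd2 in a single library. All 20 mature fibre genes and all 12 genes of regenerating muscle were detected in every library. The same held for all 14 lymphocyte genes, so detection alone does not test the tissue label. Over all genes 25.2% were called higher and 22.9% lower, to be read beside the marker counts that follow. Mature fibre markers were lower under dexamethasone: 10 of 20 were called lower and 0 higher. Their mean was 11.66 to 12.18 log2 CPM in dexamethasone libraries against 12.25 to 12.77 in saline libraries, with no overlap. Lymphocyte markers (14 of 14 lower) and dendritic cell markers (8 of 10 lower) fell, and cell cycle genes rose (18 of 20). Macrophage markers were called higher in 6 of 14 and lower in 1 of 14. Of regenerating myocyte and myoblast markers 3 of 12 were higher and 3 of 12 lower, of neutrophil markers 1 and 2 of 10, of fibroblast markers 2 and 2 of 11, and of endothelial markers 1 and 1 of 10. Neutrophil markers spread widely between libraries, with a mean of -0.41 to 2.10 log2 CPM in dexamethasone libraries and -0.77 to 4.51 in saline libraries. In whole muscle, fewer cells of a type and less RNA per cell cannot be told apart.

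As a group the proteasome genes were near their saline level under dexamethasone, with a median log2 fold change of -0.04 against 0.01 over all genes, while some subunit classes differed in opposite directions. Of the 43 genes, 22 were called at 0.05 by limma's moderated test, with p-values adjusted by Benjamini-Hochberg over all 14911 genes, where 48.1% of all genes were called. The 8 higher genes (18.6%) stand beside 25.2% of all genes, and the 14 lower genes (32.6%) beside 22.9%. The changes were small, with a median absolute log2 fold change of 0.12, against 0.23 over all genes, and no proteasome gene moved by more than 1.37-fold in either direction. The groups did not overlap in 10 proteasome genes, 3 higher and 7 lower, where 25.8% of all genes separated, 12.9% in each direction. The balance of calls depended on the fit. It was 3 higher and 14 lower with each library centred on its median, and 3 and 13 without dexamethasone library 4 and saline library 3. It was 8 and 8 without saline library 1, 5 and 2 with the mature fibre mean as a covariate, and 13 and 6 with a trend on exonic length removed.

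**Figure D1:**
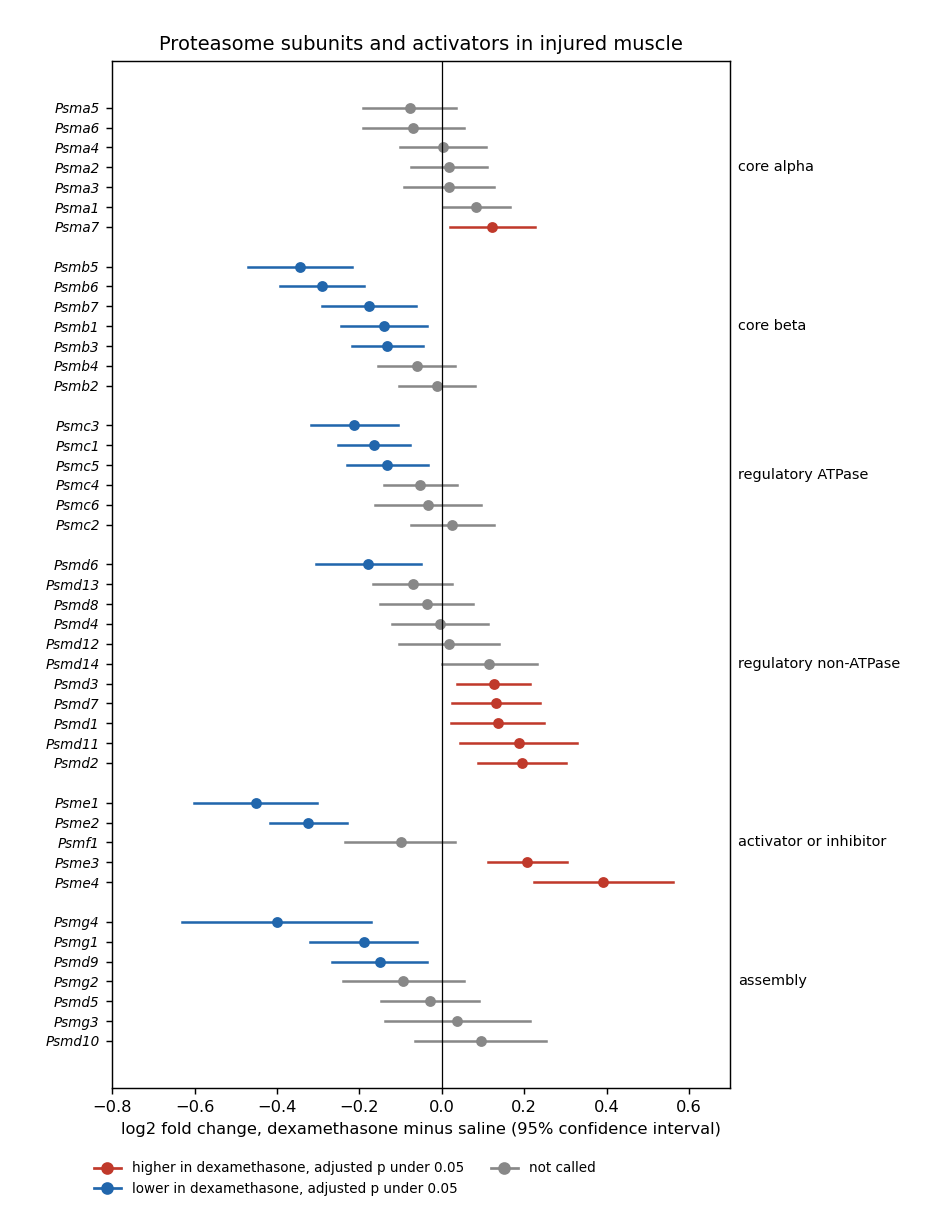
Log2 fold change (dexamethasone minus saline) of the 43 proteasome genes by class, with 95% confidence intervals; red marks genes called higher, blue genes called lower and grey genes not called. Of the core beta subunits 5 of 7 are blue, of the non-ATPase subunits 5 of 11 are red, and the activators spread from -0.45 for Psme1 to 0.39 for Psme4.

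Among the alpha subunits, which form the outer rings of the core and gate the entry to the barrel, Psma7 was the single gene called, 1 of 7 higher and 0 lower, with a class median of 0.02. Psma7 (Entrez 26444, mm10 chr2:180036374-180042433) had a lowest, median and highest level of 6.61, 6.72 and 6.82 log2 CPM in dexamethasone libraries, against 6.57, 6.55, 6.53 and 6.72 in saline libraries. Saline library 5 lay within the dexamethasone range, and 4 dexamethasone libraries were above every saline library. Psma7 had a log2 fold change of 0.12 ± 0.05 (SE), with a limma adjusted p of 0.0468, and the call held in 4 of 13 fits with a library left out.

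Psma1 ran from 6.15 through a median of 6.22 to 6.28 log2 CPM in dexamethasone libraries, and had 6.13, 6.15, 6.10 and 6.15 in saline libraries. All 9 dexamethasone libraries were above all 4 saline libraries, by a narrow margin. Its log2 fold change of 0.08 ± 0.04 had a limma adjusted p of 0.0774 and was not called. The other alpha subunits had log2 fold changes of 0.02 for Psma2, 0.02 for Psma3, 0.00 for Psma4, -0.08 for Psma5 and -0.07 for Psma6, none of them called. Their 95% confidence intervals together reached from -0.19 to 0.13.

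The beta subunits, which hold the active sites of the core, were called lower in 5 of 7 genes and higher in none, with a median log2 fold change of -0.14. That count was 3 without saline library 1, 2 with the length trend removed, with 1 gene then higher, and 0 with the fibre covariate. In the fit of the values as deposited, the 3 catalytic subunits were the 3 with the largest falls. That order did not hold in either of the last 2 fits. With the length trend removed the structural subunit Psmb1 had -0.166, against -0.159 for Psmb5, -0.09 for Psmb6 and -0.035 for Psmb7. With the fibre covariate Psmb7 had -0.041, against -0.074 for Psmb1 and -0.065 for Psmb3. Psmb5 carries the chymotrypsin-like site, the one that most proteasome drugs are directed at, Psmb6 the caspase-like site and Psmb7 the trypsin-like site.

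Psmb6 (Entrez 19175, mm10 chr11:70525367-70527858) had a lowest, median and highest level of 6.89, 7.04 and 7.15 log2 CPM in dexamethasone libraries, against 7.36, 7.32, 7.26 and 7.34 in saline libraries. Every dexamethasone library was below every saline library. It was 1.22-fold lower, a log2 fold change of -0.29 ± 0.05 with a limma adjusted p of 0.000152. With a length trend removed, as described below, the value was -0.09 and the adjusted p 0.0561.

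Psmb5 (Entrez 19173, mm10 chr14:54614119-54618022) ran from 5.68 through 5.98 to 6.01 log2 CPM in dexamethasone libraries, and had 6.24, 6.27, 6.22 and 6.29 in saline libraries. The 4 saline libraries lay close together and above all 9 dexamethasone libraries. Psmb5 was thus 1.27-fold lower, a log2 fold change of -0.34 ± 0.06 (limma adjusted p of 0.000228). Of the 50-base words in its exons, 54.1% also occur in another annotated gene, chiefly Gm3375, so its reads are uncertain between copies. Such sharing exceeded 10% in 8 proteasome genes, with Psma5 (49.1%), Psme2, Psmd2 (17.8%), Psmb3 (17.8%), Psma3 (15.4%), Psmc1 (14.1%) and Psma4 (11.6%) the others, and was 0 in 20.

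Psmb7 averaged 7.11 ± 0.08 log2 CPM in dexamethasone libraries and 7.28 ± 0.09 in saline libraries (SD, n = 9 and 4), a log2 fold change of -0.18 with a limma adjusted p of 0.0128. The groups overlapped, with 6 of 9 dexamethasone libraries below all saline libraries. Exons of Nek6 on the opposite strand overlap 34.9% of its exonic bases, and whether counting used strand is not stated. Leaving out saline library 1 gave -0.14 and an adjusted p of 0.0517. The structural subunits Psmb1 (-0.14) and Psmb3 (-0.13) were also lower, whereas Psmb2 (-0.01) and Psmb4 (-0.06) were not called. In Psmb3 the groups did not overlap. Psmb1 was not called without saline library 1 (adjusted p of 0.0505) or saline library 5 (0.0805).

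**Figure D2:**
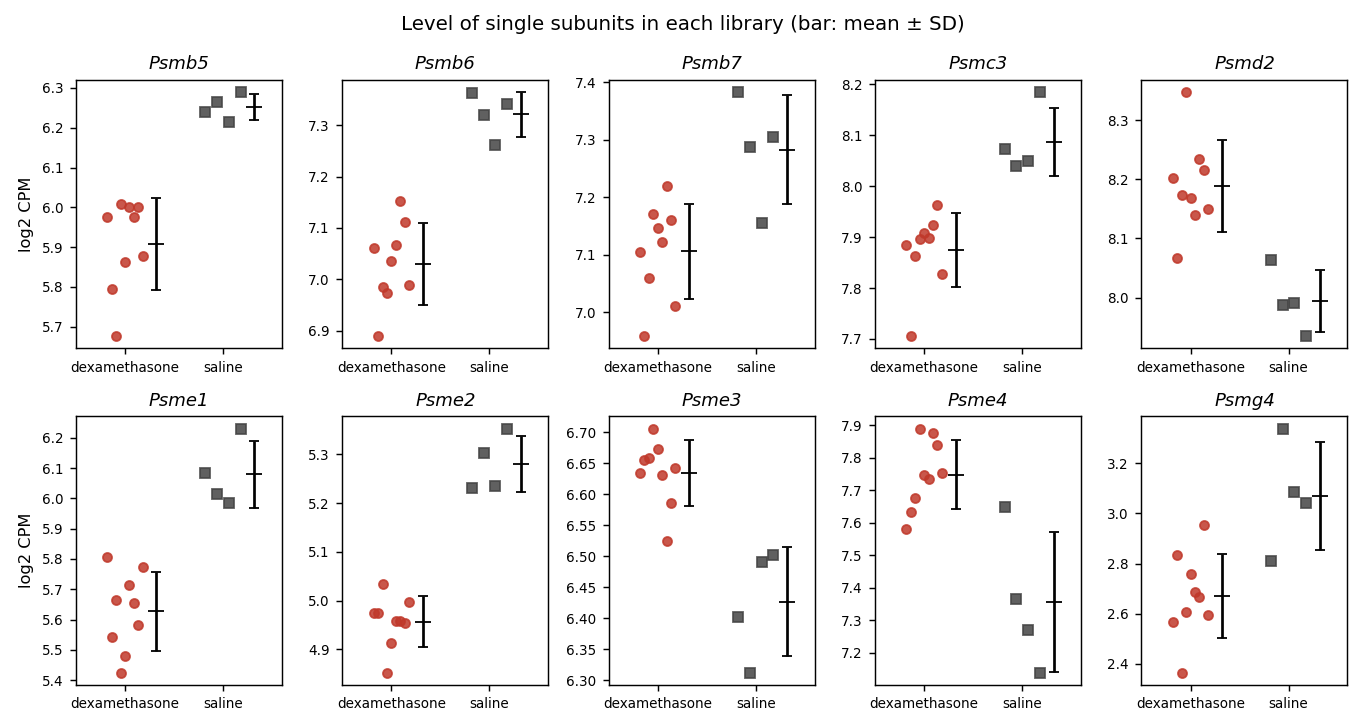
Level in log2 CPM of 10 proteasome genes in each library, dexamethasone (red circles) left of saline (grey squares), with the mean and SD as bars. Psmb5, Psmb6, Psmc3, Psme1 and Psme2 show no overlap with dexamethasone below, Psmd2 and Psme3 no overlap with dexamethasone above, and Psmb7, Psme4 and Psmg4 overlap.

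The ATPases, whose ring unfolds substrates, were called lower in 3 of 6 genes and higher in none, with a median of -0.09. Psmc3 (Entrez 19182, mm10 chr2:91054009-91066369) had a lowest, median and highest level of 7.71, 7.90 and 7.96 log2 CPM in dexamethasone libraries, against 8.07, 8.04, 8.05 and 8.19 in saline libraries. All 9 dexamethasone libraries were below all saline libraries. Psmc3 was 1.16-fold lower, with a log2 fold change of -0.21 ± 0.05 (limma adjusted p of 0.0024).

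Psmc1, another ATPase of the ring, ran from 7.05 through 7.15 to 7.22 log2 CPM in dexamethasone libraries, and had 7.36, 7.25, 7.27 and 7.35 in saline libraries. The groups again did not overlap, and the log2 fold change was -0.17 ± 0.04 with a limma adjusted p of 0.00362. Psmc5 was lower by a log2 fold change of -0.13 (adjusted p of 0.0284), with 1 dexamethasone library inside the saline range, and was not called without saline library 1 (adjusted p of 0.102) or saline library 5 (0.067). Psmc2 (0.03), Psmc4 (-0.05) and Psmc6 (-0.03) were not called. Without the length trend the class median was -0.01, and Psmc3 was the ATPase that remained called (-0.17, adjusted p of 0.00537).

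The non-ATPase subunits went mainly the other way, with 5 of 11 called higher, 1 lower and a median of 0.12. Over all genes 25.2% were higher and 22.9% lower. The number higher depended on the saline libraries: 6 without library 1, 1 without library 2, and 2 without library 3 or 5. It was 0 over the 8 libraries whose mouse number occurs in both groups, with a median of 0.08. Psmd2 (Entrez 21762, mm10 chr16:20651652-20663414), a scaffold of the base to which ubiquitin receptors and substrate shuttles dock, had a lowest, median and highest level of 8.07, 8.17 and 8.35 log2 CPM in dexamethasone libraries. The saline libraries had 8.06, 7.99, 7.99 and 7.94. All 9 dexamethasone libraries were above every saline library, the lowest of them by less than 0.01. Psmd2 was 1.15-fold higher, with a log2 fold change of 0.20 ± 0.05 (limma adjusted p of 0.00445).

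Psmd3, of the lid that removes ubiquitin chains, ran from 7.01 through 7.10 to 7.19 log2 CPM in dexamethasone libraries, and had 6.95, 6.95, 6.98 and 7.03 in saline libraries. A single dexamethasone library fell inside the saline range. The log2 fold change was 0.13 ± 0.04 with a limma adjusted p of 0.0209, and 0.0647 without saline library 2. The lid subunits Psmd11 (0.19) and Psmd7 (0.13), and Psmd1 (0.14), the other scaffold of the base, were also called higher, each with overlapping groups. These calls lay near the cut-off, with limma adjusted p of 0.0301 for Psmd11, 0.0422 for Psmd7 and 0.0455 for Psmd1. Psmd11 was called in 10 of 13 fits with a library left out, Psmd7 in 3 of 13 and Psmd1 in 3 of 13. In those fits the log2 fold changes ran from 0.15 to 0.25, 0.11 to 0.15 and 0.11 to 0.20. Their largest adjusted p in those fits was 0.107 for Psmd11, 0.127 for Psmd7 and 0.153 for Psmd1. With median centring Psmd2 was the non-ATPase subunit that remained called higher.

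Psmd6, a lid subunit, went against its class. It ran from 6.47 through 6.71 to 6.80 log2 CPM in dexamethasone libraries, against 7.02, 6.89, 6.77 and 6.79 in saline libraries. Of the dexamethasone libraries, 7 were below all saline libraries. The log2 fold change was -0.18 ± 0.06 (limma adjusted p of 0.0225), and it was not called without saline library 1 (-0.13, adjusted p of 0.101) or saline library 2 (-0.17, 0.06). With the mature fibre mean as a covariate its sign turned, to 0.04 with an adjusted p of 0.667. Psmd14, the deubiquitinase of the lid, had 0.12 (adjusted p of 0.0921) and was called without saline library 1 (0.16, adjusted p of 0.0222). Psmd4, a ubiquitin receptor, had -0.01, and Psmd8 (-0.04), Psmd12 (0.02) and Psmd13 (-0.07) were not called either.

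**Figure D3:**
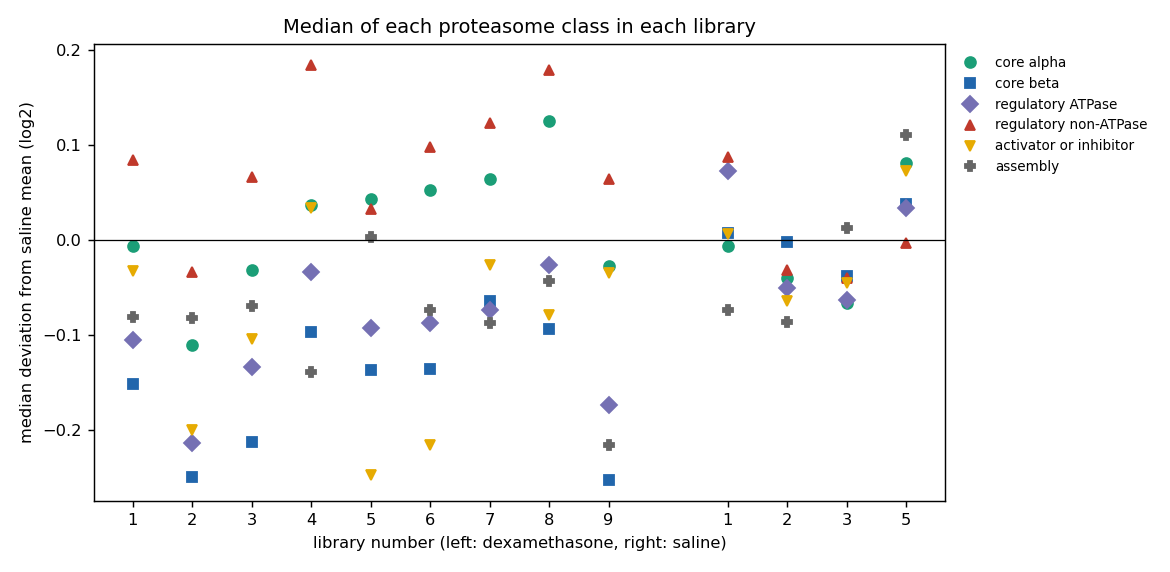
Median over each class of the deviation from the saline mean (log2), for each library, dexamethasone libraries on the left and saline libraries on the right. The core beta medians (blue squares) were -0.25 to -0.06 in dexamethasone libraries and -0.04 to 0.04 in saline libraries, and the non-ATPase medians (red triangles) were -0.03 to 0.18 and -0.04 to 0.09.

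Taken library by library, the core beta median was below every saline library in all 9 dexamethasone libraries, while the other classes overlapped between groups, as the plot of class medians shows. Libraries also differed across classes: dexamethasone library 2 had the lowest level of its group for 23 of 43 genes, dexamethasone library 4 the highest for 18 and dexamethasone library 8 the highest for 11. Among saline libraries, libraries 1 and 5 were each highest for 20 genes, library 3 lowest for 19 and library 2 lowest for 15. After each group's mean was taken out, levels within a class ran together over the 13 libraries. The median pairwise Pearson r was 0.64 for alpha, 0.69 for beta, 0.76 for ATPase and 0.66 for non-ATPase subunits, but 0.19 for assembly factors. Genes of 1 library share its depth and its tissue, so these values are a description.

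The activators split. Psme1 and Psme2, which together form the interferon-induced cap, were lower, and Psme3 and Psme4, the nuclear and the large single-gene activators, were higher. These 4 genes held all their calls without any single library.

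Psme1 (Entrez 19186, mm10 chr14:55578123-55581529) had a lowest, median and highest level of 5.43, 5.66 and 5.81 log2 CPM in dexamethasone libraries, against 6.09, 6.02, 5.99 and 6.23 in saline libraries. Every dexamethasone library was below every saline library. The log2 fold change was -0.45 ± 0.07 (limma adjusted p of 9.49e-05), and at 1.37-fold this was the largest change of any proteasome gene here.

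Psme2 (Entrez 19188, mm10 chr14:55587441-55591113), its partner and its neighbour on the chromosome, ran from 4.85 through 4.96 to 5.03 log2 CPM in dexamethasone libraries, and had 5.23, 5.30, 5.24 and 5.35 in saline libraries. The groups did not overlap and each was tight, with an SD of 0.05 in dexamethasone and 0.06 in saline libraries. Its log2 fold change was -0.32 ± 0.04 (1.25-fold lower, limma adjusted p of 2.99e-05). Of its 50-base exon words, 28.3% also occur in other annotated genes, chiefly its copy Psme2b. Psme1 and Psme2 ran together across libraries after group means were taken out, with a Pearson r of 0.71 over 13 libraries.

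Psme3 (Entrez 19192, mm10 chr11:101316213-101323537), whose product works in the nucleus without ubiquitin, had a lowest, median and highest level of 6.52, 6.64 and 6.71 log2 CPM in dexamethasone libraries. The saline libraries had 6.40, 6.31, 6.49 and 6.50, all below every dexamethasone library. The log2 fold change was 0.21 ± 0.05 (1.16-fold higher, limma adjusted p of 0.00146). With the mature fibre covariate it was 0.11, with an adjusted p of 0.213.

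Psme4 (Entrez 103554, mm10 chr11:30771726-30880361), known for the degradation of acetylated histones in the testis, ran from 7.58 through 7.75 to 7.89 log2 CPM in dexamethasone libraries, and had 7.65, 7.37, 7.27 and 7.14 in saline libraries. Saline library 1 was the high one and lay above 2 dexamethasone libraries, and the other 7 were above all saline libraries. Its log2 fold change was 0.39 ± 0.08 (1.31-fold higher, limma adjusted p of 0.000847). Psmf1, the inhibitor of the core, averaged 4.51 ± 0.10 log2 CPM in dexamethasone libraries and 4.61 ± 0.11 in saline libraries (SD, n = 9 and 4), and was not called (-0.10, adjusted p of 0.203).

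The balance between activators was compared within each library, as the difference of both genes in log2 CPM. Each test was an exact permutation test over all 715 ways to divide the libraries into 4 and 9, two-sided, adjusted over 9 pairs. Psme4 minus Psme1 was 2.12 ± 0.20 in dexamethasone libraries and 1.28 ± 0.27 in saline libraries (SD, n = 9 and 4). That is a shift of 0.84 with an exact permutation p of 0.0014, the smallest this test can give. Psme3 minus Psme1 was 1.01 ± 0.16 in dexamethasone and 0.35 ± 0.11 in saline libraries, a shift of 0.66 with the same exact permutation p. Psme3 minus Psme2 was 1.68 ± 0.08 in dexamethasone and 1.15 ± 0.10 in saline libraries, a shift of 0.53, again with that exact p. These 3 pairs had an adjusted p of 0.00315, and in each all 9 dexamethasone libraries exceeded all saline libraries. Psme1, Psme2 and Psme3 had each separated the groups alone, so this outcome was fixed for the pairs with Psme3. The 3 pairs also share genes, and their p-values add no evidence independent of the single genes. Within the interferon-induced cap, Psme2 minus Psme1 was -0.67 ± 0.10 in dexamethasone and -0.80 ± 0.08 in saline libraries, a shift of 0.13 that did not pass (exact permutation, adjusted p of 0.0932), though it passed without dexamethasone library 1 (0.15, adjusted p of 0.0436) or 9 (0.14, 0.0455).

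The same test set each constitutive catalytic subunit against its inducible counterpart, which replaces it in the immunoproteasome. All 3 inducible subunits were lower under dexamethasone, Psmb9 by a log2 fold change of -0.96, Psmb8 by -0.59 and Psmb10 by -0.33 (limma adjusted p of 5.59e-06, 0.000116 and 0.00529). Psmb6 minus Psmb9 was 4.12 ± 0.23 in dexamethasone libraries and 3.45 ± 0.10 in saline libraries (SD, n = 9 and 4), a shift of 0.67 with an exact permutation adjusted p of 0.00315 and no overlap. Psmb5 minus Psmb8 was 1.34 ± 0.20 in dexamethasone and 1.10 ± 0.18 in saline libraries, a shift of 0.24 with an exact permutation adjusted p of 0.105, and 0.04 without dexamethasone library 9. Psmb7 minus Psmb10 was 2.61 ± 0.20 in dexamethasone and 2.45 ± 0.16 in saline libraries, a shift of 0.16 with an exact permutation adjusted p of 0.236. So the excess of the constitutive over the inducible gene was larger under dexamethasone for 1 pair of 3 by this test. Psma5 minus Psmd4, 1 alpha subunit against 1 non-ATPase subunit, shifted by -0.07 (exact permutation adjusted p of 0.236). Neither gene was called, and the pair does not measure the balance between the core and the regulatory particle. Pomp minus Psmg1, 2 assembly factors of the core, shifted by 0.00 (exact permutation adjusted p of 0.989).

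Interferon response genes moved with these members. All 20 listed genes were called lower, where 22.9% of all genes were, and their median log2 fold change was -1.01. Their list mean was 3.83 to 4.50 log2 CPM in dexamethasone libraries against 4.77 to 5.16 in saline libraries. The list mean did not overlap between groups, as for lymphocyte markers, which were at -1.43 to 0.03 in dexamethasone libraries and 1.37 to 1.92 in saline libraries. No interferon, lymphocyte or dendritic cell gene was at 0 in every library. The part of either in the levels of Psme1, Psme2, Psmb8, Psmb9 and Psmb10 was not tested.

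**Figure D4:**
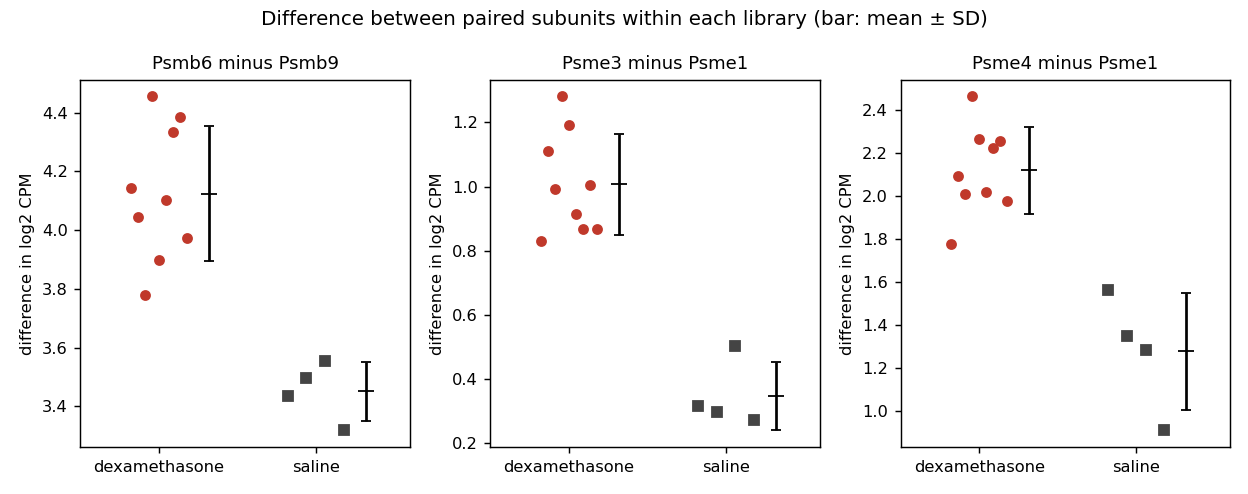
Difference in log2 CPM between paired genes within each library, for Psmb6 minus Psmb9, Psme3 minus Psme1 and Psme4 minus Psme1, dexamethasone (red circles) left of saline (grey squares), with the mean and SD as bars. In each panel all 9 dexamethasone libraries lie above all 4 saline libraries.

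Assembly factors, which build the core and the base and then leave, were called lower in 3 of 7 genes and higher in none, with a median of -0.09. Psmg4 (Entrez 69666, mm10 chr13:34162964-34178173), which with Psmg3 helps build the alpha ring, had a lowest, median and highest level of 2.36, 2.67 and 2.95 log2 CPM in dexamethasone libraries, against 2.81, 3.34, 3.09 and 3.04 in saline libraries. Saline library 1 was low, and 7 dexamethasone libraries were below it. The log2 fold change was -0.40 ± 0.11 (1.32-fold lower, limma adjusted p of 0.00633), on 153 to 268 reads per library.

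Psmg1, which pairs with Psmg2 in the other alpha ring chaperone, ran from 3.64 through 3.74 to 3.84 log2 CPM in dexamethasone libraries, and had 3.97, 3.83, 3.84 and 4.03 in saline libraries. Of the dexamethasone libraries 7 were below all saline libraries. Its log2 fold change was -0.19 ± 0.06 with a limma adjusted p of 0.0172, and 0.0503 without saline library 1 or 0.0651 without saline library 5. Psmd9, a chaperone of the base, was lower by a log2 fold change of -0.15 (adjusted p of 0.0308) and was called in 9 of 13 fits with a library left out. Psmd5 (-0.03) and Psmd10 (0.10), which also chaperone the base, and Psmg2 (-0.09) and Psmg3 (0.04) were not called.

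Levels of different genes were compared per kilobase of exon. The length counts every annotated exon of a gene and is not that of the transcript in use, so the order of genes depends on annotation. Psma2 (2911 bases) and Psmb1 (3427 bases) were the lowest of the alpha and of the beta subunits on this scale. Core and regulatory subunits ran from 28.7 CPM per kb for Psma2 to 163.9 for Psmb6 in dexamethasone libraries, and from 26.7 for Psmd11 to 200.5 for Psmb6 in saline libraries. Psmb6 was the highest member in both groups, at 163.9 ± 8.98 in dexamethasone libraries and 200.5 ± 6.00 in saline libraries (SD, n = 9 and 4). In dexamethasone libraries Psmb7 came next at 118.9 ± 6.71 CPM per kb, Psmc3 at 114.9 ± 5.66, and then Psmb4 at 102.6 ± 4.64 and Psmb3 at 102.2 ± 4.13, neighbours that lie within their spread. In saline libraries Psmb7 had 134.4 ± 8.65 and Psmc3 133.1 ± 6.32, also within their spread. The assembly factors were all lower, from 6.22 for Psmd5 to 12.7 for Psmg1 in dexamethasone libraries, and the inhibitor Psmf1 lowest of all at 5.71 ± 0.38, against 6.12 ± 0.43 in saline libraries. Psme1 led the activators in both groups, at 44.6 ± 3.99 CPM per kb in dexamethasone and 60.9 ± 4.71 in saline libraries. Psme4 had 33.2 ± 2.44 in dexamethasone libraries against 25.4 ± 3.93 in saline libraries, and Psme2 had 31.8 ± 1.13 against 39.9 ± 1.62. In dexamethasone libraries these 2 genes lay within their spread, and in saline libraries Psme2 was above Psme4.

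Exonic length moved with the changes, over all genes and among the proteasome genes. Split into quartiles by length, all genes had median log2 fold changes of -0.12, -0.02, 0.04 and 0.10 from shortest to longest. The share called higher was 15.3% in the shortest quartile and 36.0% in the longest, and the share called lower was 34.1% and 13.8%. Proteasome genes are short: 27 of the 43 were in the shortest quartile, of at most 2039 bases, and of those 2 were called higher and 11 lower, with a median of -0.07. Across the 43 genes the Pearson r of log2 length with the log2 fold change was 0.57, against 0.14 over all genes, and it is given as a description because genes are not independent replicates. Psmg4, with 555 bases, fell most after Psme1, and Psme4, with 6491 bases, was the member that rose most.

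**Figure D5:**
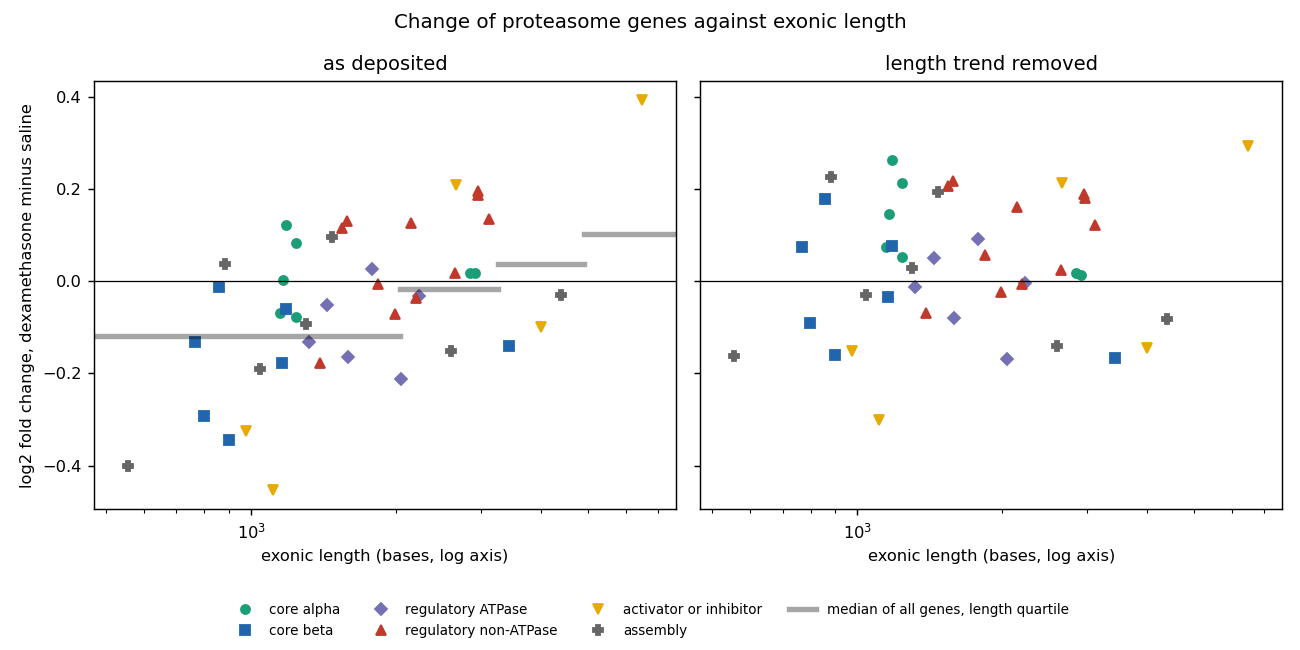
Log2 fold change (dexamethasone minus saline) of each proteasome gene against its exonic length in bases on a log axis, as deposited (left) and after the trend with length was removed from each library (right), with colours for the 6 classes. Grey lines on the left are the medians of all genes in each length quartile, from -0.12 to 0.10, and the correlation with length across the 43 genes was 0.57 on the left and 0.12 on the right.

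When each library's trend with length was removed before the fit, 13 proteasome genes were called higher and 6 lower, in place of 8 and 14. Psme1 (-0.30), Psme2 (-0.15), Psmb5 (-0.16), Psmc3 (-0.17), Psmb1 (-0.17) and Psmd9 (-0.14) remained lower. Psme4 (0.29), Psme3 (0.21), Psmd2 (0.19), Psmd3 (0.16), Psmd7 (0.22), Psmd11 (0.18) and Psma7 (0.26) remained higher. Psma1, Psma4, Psmb2, Psmd10, Psmd14 and Psmg3 were also called higher in that fit, though not in the fit of the values as deposited. Psmb3, Psmb6, Psmb7, Psmc1, Psmc5, Psmd1, Psmd6, Psmg1 and Psmg4 were no longer called.

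The mean of the mature fibre markers also differed between the groups, as given above. With that mean as a covariate, 5 proteasome genes were called higher and 2 lower: Psme4 (0.63), Psmd11 (0.35), Psmd2 (0.30), Psmd1 (0.29) and Psmd7 (0.23), and Psme1 (-0.37) and Psme2 (-0.36). No core gene was called in that fit, and Psmb6 had -0.16 (adjusted p of 0.0712) and Psmb5 -0.21 (0.0914). The covariate did not overlap between groups, so the fit has little information to part it from treatment. Psme1, Psme2 and Psme4 were called in the same direction in all 13 fits with a library left out and in all 12 other alternative fits.

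Genes around the proteasome were called in both directions in each list, with more higher than lower, where 25.2% of all genes were higher and 22.9% lower. Of 18 measured partners of the proteasome outside the name rule, 7 were higher and 4 lower (median 0.07). Among them Ddi2, the protease that activates NFE2L1, had a log2 fold change of 0.67, Zfand2a, a stress-induced proteasome-binding protein, 0.51, Txnl1, a thioredoxin bound to the regulatory particle, 0.36, and Rad23b, a shuttle for ubiquitylated substrates, 0.27. In each of these 4, named for their small adjusted p, the groups did not overlap, as in 25.8% of all genes.

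Of 13 measured genes of the NFE2L1 pathway, 6 were higher and 2 lower (median 0.14). Maff (1.04) and Mafk (0.63), the small Maf proteins that pair with NFE2L1 and related factors on antioxidant response elements, and Bach1 (0.58), a repressor at those elements, were with Ddi2 the 4 of smallest adjusted p. Nfe2l1 itself, named here although the naming rule did not pick it, had 0.14 and an adjusted p of 0.111, and 0.195 with an adjusted p of 0.042 without saline library 1. Of 15 measured genes of the p97 segregase, which pulls ubiquitylated proteins out of complexes, 7 were higher and 2 lower (median 0.18). Ubxn1 had -0.52, Atxn3 0.36, Plaa 0.27 and Derl2 0.26, while the segregase gene Vcp had 0.00.

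Ubiquitin genes and conjugating enzymes were higher in 4 of 18 and lower in 3 (median 0.03), with Uba6, a ubiquitin-activating enzyme, at 0.56, Ube2d3 at 0.33, Birc6 at 0.32 and Cdc34 at -0.47. Of 13 ubiquitin ligases tied to muscle atrophy, 3 were higher and 2 lower (median 0.12). Fbxo30 (0.34) was higher, and Stub1 (-0.39) and Mul1 (-0.25) were lower. The best known of them were named after their values were seen: Fbxo32 averaged 7.84 ± 0.58 log2 CPM in dexamethasone libraries and 7.19 ± 0.22 in saline libraries (SD, n = 9 and 4), with a log2 fold change of 0.65 and a limma adjusted p of 0.0452 that held in 5 of 13 fits with a library left out. Trim63 averaged 7.71 ± 0.55 in dexamethasone and 7.33 ± 0.19 in saline libraries, with a log2 fold change of 0.38 and an adjusted p of 0.208. Dexamethasone library 4 stood apart in both genes, at 9.16 in Fbxo32 and 9.00 in Trim63. Without it the log2 fold change was 0.49 for Fbxo32 (limma adjusted p of 0.0139, so still called) and 0.22 for Trim63 (0.18). The 3 genes outside the proteasome whose levels ran closest to the mean of the 14 core genes over 13 libraries were Nop10 (Pearson r of 0.96), Rtraf (0.95) and Kiz (0.95).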

How the data were processed

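Polyadenylated RNA was measured with stranded libraries, 1 per mouse, in whole hamstring of 9 dexamethasone and 4 saline mice, grouped by the labels. The submitters' processing notes name featureCounts 2.0.1, limma 3.50.1 and the build mm10. The aligner was not given in the sources used here, nor was a filter on low counts. For each mouse the authors deposited log2 CPM, with their own log2 fold changes and p-values, in tables made with and without an excluded saline mouse. The table without it (14911 genes) was used. The other (14970 genes) served as an alternative, and its 1 column of that mouse was not used. Turned back into reads, 100% of the deposited log2 values came within 0.01 of a whole read. The lowest chi-square per gene over 42 same-group library pairs was 7.21, so each library counted as 1 sample.

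Every gene was fitted with limma 3.58.1 (R 4.3.3), moderated with a trend on intensity and two-sided. P-values were adjusted over all genes by Benjamini-Hochberg, at 0.05. A fold is a difference of mean log2 CPM, whose offset is 0.5 read. Tested on simulated data for dexamethasone against saline over 14911 genes, the fit called 89 of 100 genes given a log2 change of 1 and 57 of 100 given 0.5, with 6 of 152 calls false. The deposited values gave 7173 calls over 14911 genes, and recovery with so large a share of genes called was not tested. Recovery of changes near 0.12, the median absolute log2 fold change of the proteasome genes, was not tested either. Of the proteasome genes, 20 had an adjusted p under 0.05 in the authors' deposited table, all 20 also called here in the same direction, and 2 more were called here.

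Exonic lengths and gene coordinates came from GENCODE release M21 (GRCm38, the same build as mm10), matched for 14909 genes. A length is the number of bases covered by any exon of the gene in the basic set. The chr ranges printed with Entrez numbers are the annotated genes from first to last base, exons and introns. Sequences came from RefSeq tables on GRCm38.p6. The words shared with copies are runs of 50 bases. Values per library were given for the 2 genes of smallest adjusted p and the largest change in each class, for genes going against their class, and up to 4 genes per list. A gene that this rule picked is not reported here. Gene members, lists and the naming rule were chosen with earlier results of these data known. Alternatives were the other table, log2 of CPM plus 1, a filter at a mean log2 CPM of 1, median centring, quantile normalisation, no trend, voom on recovered reads, the mouse number as a block, a fibre covariate, and each library left out. Removal of a loess trend with length (span 0.5), and leaving out saline library 3 with dexamethasone library 4, were added after seeing the data. Figures were drawn with matplotlib 3.10.9.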

Additional observations from a re-analysis of the deposited data

Results flagged for a closer look

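A library was flagged where it lay far from the others of its group by Dixon's criterion at 95%. Of 86 groups of values checked (43 genes in each treatment), 4 were flagged, where chance gives about 1 in 20. All 4 genes were uncalled. Psmd5 had 4.57 log2 CPM in dexamethasone library 9, against 4.75 to 4.89 in the other dexamethasone libraries. Psmd10 had 3.69 in dexamethasone library 6, against 3.83 to 3.96 in the others. Psmc6, an ATPase, had 6.34 in saline library 1, against 6.08 to 6.10 in the other saline libraries. Psmf1, the inhibitor, had 4.45 in saline library 2, against 4.64 to 4.67 in the others.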

How the results depend on the processing

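Of the 22 called proteasome genes, 11 were called in every fit that left out 1 library and 3 (Psme1, Psme2 and Psme4) in every fit run. The number called higher, 8 as reported, was 3 to 8 with a library left out. It was 3 without saline library 2, 4 without saline library 3, 5 without saline library 5 or dexamethasone library 1, 4, 6, 7 or 8, and 3 without both saline library 3 and dexamethasone library 4. It was 5 in the other deposited table, 3 with median centring, 5 without an intensity trend, 5 with the fibre covariate and 13 with the length trend removed. The number called lower, 14 as reported, was 8 to 14 with a library left out, 8 without saline library 1, 2 with the fibre covariate and 6 with the length trend removed. Among calls the share higher was 36.4% as reported, 26.3% in the other table and without a trend, 17.6% with median centring, 50% without saline library 1, 18.8% without saline library 2, 14.3% over the 8 numbered libraries, 68.4% with the length trend removed and 71.4% with the fibre covariate.

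The core beta median was -0.065 with the fibre covariate and -0.035 with the length trend removed, the ATPase median -0.006 and -0.008, and the assembly median -0.029 with the length trend removed. Counting Psmd5, Psmd9 and Psmd10 as regulatory gave medians of 0.06 for non-ATPase and -0.14 for assembly genes. Signs turned for Psmd6 with the fibre covariate (0.042), and for Psmb3 (0.074) and Psmb2 (0.18) with the length trend removed. The cause was not tested. With 1 library left out Psme2 minus Psme1 shifted by 0.10 to 0.16 and Psmb5 minus Psmb8 by 0.16 to 0.30.

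Mouse numbers 1, 2, 3 and 5 occur in both groups, but their deviations correlated at -0.01, -0.07, -0.03 and 0.12, so the numbers were not taken to pair the samples. With the number as a block, the 8 libraries gave 2 higher and 12 lower, and without the block 2 and 12. Voom used the authors' effective library sizes in place of TMM factors.

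Reads of copies such as Gm3375 and Psme2b cannot be separated here. Most changes were below 0.2 on the log2 scale, where 4 saline libraries limit the precision. Calls near the cut-off were often lost when a single library was left out. Values are shares of a library, so a change in total RNA is not measured.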
